A study of Mus musculus with 12 samples.

Results

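The WNT, R-spondin, and hedgehog genes that organize the zones of the adrenal cortex were examined in the adrenal cortex RNA of 12 mice. They are *Wnt4*, *Rspo1*, *Rspo3*, *Znrf3*, *Axin2*, *Lef1*, *Ctnnb1*, *Shh*, *Gli1*, and *Ptch1*, 10 genes of the 49585 counted. They were chosen by name, and each was found by its Ensembl identifier in the count tables of all mice. All 10 passed the filter on low counts in every comparison. Male C57BL/6J mice, 6 weeks old at the start, were fed for 20 weeks, with 4 mice in each of 3 groups. LFD mice (the group labelled as a normal diet) received a low-fat diet with 10% of its energy as fat, and HFD mice a high-fat diet with 60%. Icosapent ethyl mice received the HFD throughout, supplemented over the last 10 weeks with icosapent ethyl, the ethyl ester of the omega-3 fatty acid EPA. The labels give the genotype *Fads2*-/- for all 12 mice, whereas the methods of the study describe wild-type mice, and *Fads2* was expressed at between 451.8 and 2182 CPM in each of them.

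The cortex lies beneath a fibrous capsule and consists of an outer zona glomerulosa, which makes aldosterone, and a wider zona fasciculata, which makes corticosterone. R-spondins from the capsule and WNT4 from the glomerulosa raise canonical WNT signaling in the outer cortex. R-spondins do so by sequestering ZNRF3, a ubiquitin ligase that removes WNT receptors from the cell surface, so that β-catenin, the product of *Ctnnb1*, accumulates and acts with LEF and TCF proteins on target genes such as *Axin2*. Cells of the outer cortex also secrete sonic hedgehog (*Shh*), which binds Patched 1 (*Ptch1*) on capsular cells and turns on the transcription factor GLI1.

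Each mouse had between 34785979 and 67295963 gene counts. Levels are given in CPM (depth-scaled counts, with library sizes corrected by TMM), with means and standard deviations (SD) over 4 mice. Genes of the steroidogenic cortex were abundant in every mouse, with *Star* between 6842 and 36160 CPM, as the tissue label states. The medullary enzyme gene *Th* was also present, at 114.1 to 888 CPM, and the 12 chromaffin markers summed to 6717 to 23350 CPM in LFD, 3272 to 10390 CPM in HFD, and 5799 to 11340 CPM in icosapent ethyl mice. The 9 markers of cortical identity and the 6 of the zona fasciculata had their highest sums in the same 3 mice, HFD replicates 3 and 4 and icosapent ethyl replicate 4. LFD replicate 2 had the lowest sum of both and the highest sum of the 12 capsule and stroma markers, 889.5 CPM against 443.8 to 732.4 CPM in the other 11 mice. In whole tissue, fewer cells of a type and less RNA per cell cannot be told apart.

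Per kilobase of exon, *Ctnnb1* had the highest level of the 10 genes in LFD mice, 199 CPM per kb. It was followed by *Shh* (46.4 CPM per kb) and *Wnt4* (42.1), whose LFD mice overlapped, and then by *Rspo3* (20.4). *Axin2* (4.47), *Znrf3* (3.67), *Rspo1* (2.63), and *Ptch1* (2.20) lay lower, with neighbors in this order overlapping. *Lef1* (0.610) and *Gli1* (0.410) were the lowest and overlapped each other. *Wnt4* stood above *Shh* in the other 2 groups, again with overlapping mice. *Gli1* rested on 35 to 153 counts per mouse, *Lef1* on 60 to 377, and *Rspo1* on 92 to 442, whereas every other gene had at least 516 counts in every mouse.

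**Figure D1:**
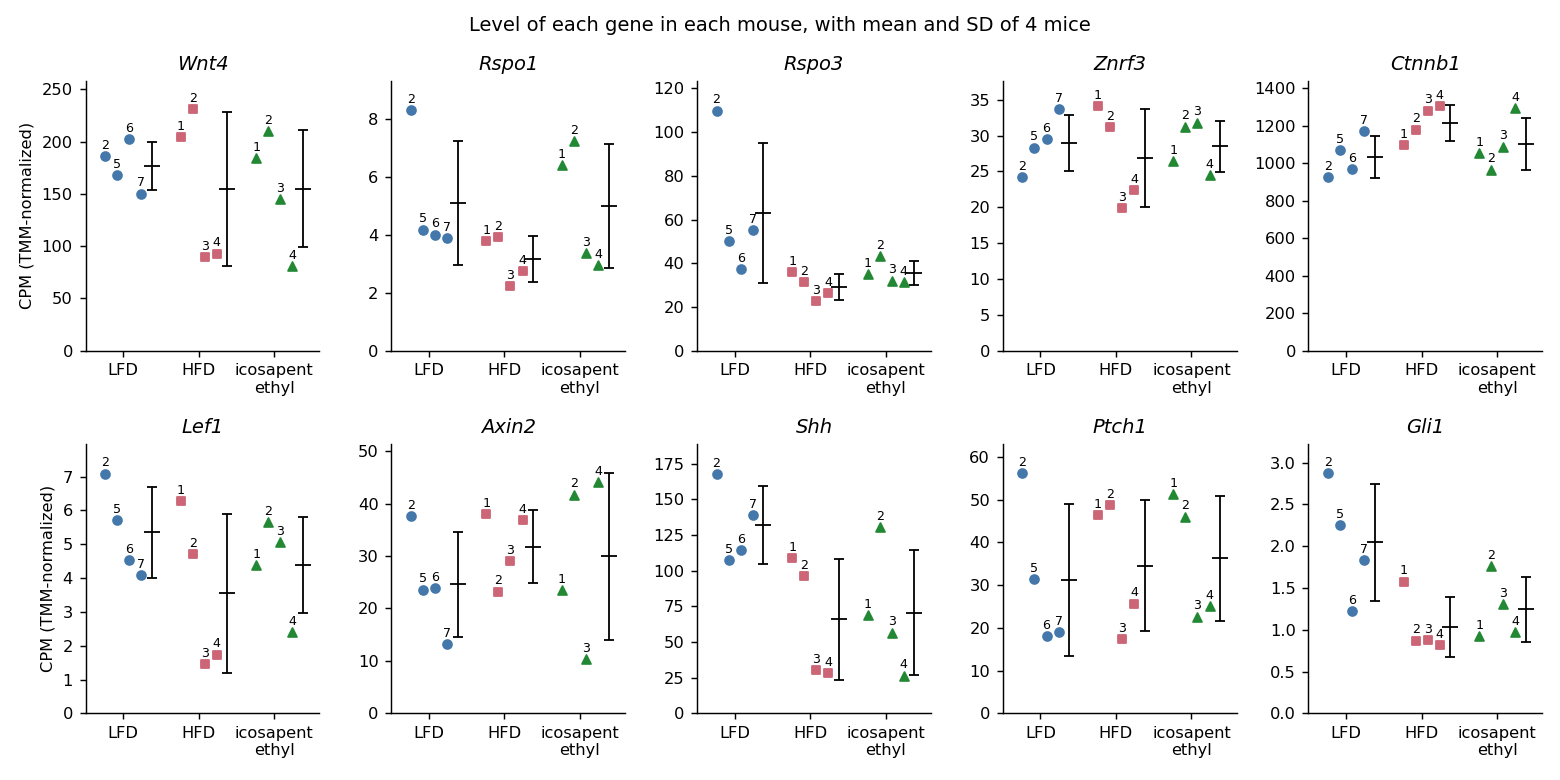
Level of each of the 10 genes in each mouse, in TMM-normalized CPM on linear axes from 0, with 1 point per mouse, its replicate number above it, and the mean and SD of the 4 mice at the right of each group. *Rspo3* lies between 22.6 and 35.9 CPM in HFD mice and at 37.3 CPM or more in LFD mice, whereas HFD replicates 3 and 4 and icosapent ethyl replicate 4 are low in *Wnt4*, *Lef1*, and *Shh*.

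HFD feeding was first compared with LFD feeding. None of the 10 genes had an adjusted p below 0.05 in edgeR (quasi-likelihood fit, adjusted after Benjamini and Hochberg over 15909 genes), whereas 1.45% of all genes did. At an unadjusted p below 0.05, *Rspo3*, *Gli1*, and *Shh* were lower and *Ctnnb1* was higher in HFD mice, 4 of 10 genes against 24.8% of all genes tested. The Wald test of DESeq2 called 2 of the 10, *Rspo3* and *Gli1*, both lower, against 12.3% of all genes. The median log2 fold change of the 10 genes was -0.40, and that of all genes -0.01. The largest fold changes were those of *Rspo3*, *Shh*, and *Gli1*, and the smallest those of *Znrf3*, *Ptch1*, and *Wnt4*.

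*Rspo3* (ENSMUSG00000019880, chromosome 10 of GRCm38 from 29452416 to 29535867, minus strand), the R-spondin known from the adrenal capsule, was at 109.9, 50.2, 37.3, and 55.3 CPM in LFD replicates 2, 5, 6, and 7. In HFD replicates 1 to 4 it was at 35.9, 31.3, 22.6, and 26.4 CPM. All 4 HFD mice were below all 4 LFD mice, which was true of 5.82% of all genes tested and of no other gene of the 10. The LFD mean was 63.2 ± 32.0 CPM and the HFD mean 29.1 ± 5.81 CPM (SD, n = 4 each), with -1.13 as the log2 fold change (SE 0.32, edgeR adjusted p = 0.0894). DESeq2 gave an adjusted p of 0.0101. The fold change rested in part on LFD replicate 2 and was -0.71 without it (adjusted p = 0.101 by edgeR).

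*Rspo1* (ENSMUSG00000028871, chromosome 4 from 124986430 to 125009099, plus strand), a second secreted R-spondin, was at 8.31 CPM in LFD replicate 2 and at 4.18, 4.01, and 3.87 CPM in LFD replicates 5, 6, and 7. HFD mice were at 3.77, 3.91, 2.24, and 2.74 CPM, so that the groups overlapped by a single HFD mouse. The log2 fold change was -0.70 (SE 0.32, edgeR adjusted p = 0.208) and -0.34 without LFD replicate 2.

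*Wnt4* (ENSMUSG00000036856, chromosome 4 from 137277489 to 137299726, plus strand), the WNT ligand of the zona glomerulosa, varied more within HFD mice than between the diets. It was at 185.9, 168.1, 202.3, and 150.2 CPM in LFD mice and at 204.3, 231.2, 89.4, and 92.9 CPM in HFD mice. HFD replicates 1 and 2 were above every LFD mouse and HFD replicates 3 and 4 below every LFD mouse. Its log2 fold change of -0.20 (SE 0.31) turned to 0.31 (SE 0.14) without HFD replicates 3 and 4.

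*Znrf3* (ENSMUSG00000041961, chromosome 11 from 5276324 to 5444847, minus strand), the ligase that R-spondins restrain, was at 24.2, 28.3, 29.6, and 33.7 CPM in LFD mice and at 34.1, 31.2, 19.9, and 22.4 CPM in HFD mice. Its log2 fold change of -0.11 (SE 0.18) became 0.18 without HFD replicates 3 and 4. *Ctnnb1* (ENSMUSG00000006932, chromosome 9 from 120929216 to 120960507, plus strand), which encodes β-catenin, was at 925.9, 1071, 966.2, and 1170 CPM in LFD mice. HFD mice were at 1098, 1179, 1280, and 1306 CPM, and 3 of them were above every LFD mouse. This was a small difference with a log2 fold change of 0.23 (SE 0.10, edgeR adjusted p = 0.190), and 0.12 when library totals were used without scaling.

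*Lef1* (ENSMUSG00000027985, chromosome 3 from 131110471 to 131224356, plus strand) encodes a partner of β-catenin on DNA and is itself a known target of the pathway. It was at 7.09, 5.72, 4.54, and 4.09 CPM in LFD mice and at 6.28, 4.70, 1.46, and 1.74 CPM in HFD mice. The HFD mice thus fell apart into replicates 1 and 2, within the LFD range, and replicates 3 and 4, below it. The log2 fold change was -0.60 (SE 0.46, edgeR adjusted p = 0.447), and 0.04 without HFD replicates 3 and 4. *Axin2* (ENSMUSG00000000142, chromosome 11 from 108920349 to 108950783, plus strand), a feedback inhibitor and the most used readout of canonical WNT signaling, was at 37.6, 23.6, 23.96, and 13.2 CPM in LFD mice. It was at 38.0, 23.2, 29.0, and 36.9 CPM in HFD mice. HFD replicates 3 and 4, the lowest of their group in *Lef1*, were not low in *Axin2*. Its log2 fold change was 0.35 (SE 0.30, edgeR adjusted p = 0.498), but 0.14 without LFD replicate 7 and 0.65 without LFD replicate 2.

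*Shh* (ENSMUSG00000002633, chromosome 5 from 28456815 to 28467256, minus strand), the hedgehog ligand, was at 167.7, 107.6, 114.3, and 138.7 CPM in LFD mice. It was at 108.8, 96.0, 30.4, and 28.3 CPM in HFD mice, with 3 of 4 below every LFD mouse. The means were 132.1 ± 27.3 CPM and 65.9 ± 42.5 CPM (SD, n = 4 each), with -1.01 as the log2 fold change (SE 0.44, edgeR adjusted p = 0.196). Without HFD replicates 3 and 4, it was -0.36 (SE 0.19). The size of the *Shh* difference thus rested on those 2 mice.

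*Gli1* (ENSMUSG00000025407, chromosome 10 from 127329882 to 127341974, minus strand), the transcriptional readout of hedgehog signaling, was at 2.88, 2.25, 1.23, and 1.83 CPM in LFD mice. It was at 1.58, 0.871, 0.876, and 0.814 CPM in HFD mice, 3 of which were below every LFD mouse. The log2 fold change was -0.99 (SE 0.33, adjusted p = 0.124 in edgeR and 0.035 in DESeq2). It was -0.77 without LFD replicate 2 and -0.74 without HFD replicates 3 and 4. *Ptch1* (ENSMUSG00000021466, chromosome 13 from 63508328 to 63573598, minus strand) is the hedgehog receptor gene and also a known target of the pathway. It was at 56.3, 31.4, 18.0, and 19.0 CPM in LFD mice and at 46.5, 48.8, 17.5, and 25.7 CPM in HFD mice (log2 fold change 0.13, SE 0.44, edgeR adjusted p = 0.881). Its groups overlapped, and without LFD replicate 2 the log2 fold change was 0.60.

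Supplementation was then compared with the HFD alone. None of the 10 genes passed the threshold in icosapent ethyl versus HFD mice by edgeR (0% of 15913 genes) or DESeq2 (0.0268% of the genes it tested), and none had an unadjusted p below 0.05 by edgeR, where 1.39% of all genes did. None separated the groups, against 1.14% of all genes. *Rspo1* differed the most, at 6.40, 7.22, 3.37, and 2.94 CPM in icosapent ethyl replicates 1 to 4, so that replicates 1 and 2 were above every HFD mouse. Its log2 fold change was 0.65 (SE 0.34, edgeR adjusted p = 1.0), and 0.41 without replicate 2. These 2 mice also had the highest sums of the 7 mesothelium markers, 37.1 and 31.3 CPM against 9.70 to 21.9 CPM in the other 10 mice, and the part of these cells in the result was not tested. *Rspo3* was at 35.0, 43.4, 32.1, and 31.3 CPM, with 1 mouse above every HFD mouse and a log2 fold change of 0.29 (SE 0.17), or 0.17 without that mouse. *Gli1*, at 0.929, 1.77, 1.31, and 0.969 CPM, had a log2 fold change of 0.26 (SE 0.31), but 0.05 without icosapent ethyl replicate 2 and 0.54 without HFD replicate 1.

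*Shh* spread widely with supplementation, at 69.1, 130.4, 56.5, and 26.4 CPM, as it did in HFD mice. Its log2 fold change against HFD mice was 0.10 (SE 0.57), with a range from -0.38 to 0.45 when single mice were left out. *Wnt4* was at 183.8, 210.1, 145.1, and 81.0 CPM (log2 fold change 0.01, SE 0.38), and *Lef1* at 4.38, 5.67, 5.07, and 2.41 CPM (log2 fold change 0.30, SE 0.49). *Lef1* had 0.04 without HFD replicate 3 and 0.72 without HFD replicate 1. Replicate 4 was the lowest mouse of its group in all 3 of these genes. *Axin2* was highest in that same mouse, at 23.5, 41.7, 10.4, and 44.0 CPM, with a log2 fold change of -0.08 (SE 0.40). *Znrf3* lay between 24.5 and 31.8 CPM, *Ctnnb1* between 965.4 and 1293 CPM, and *Ptch1* between 22.7 and 51.3 CPM in icosapent ethyl mice. Their log2 fold changes against HFD mice were 0.08 (SE 0.19), -0.14 (SE 0.11), and 0.07 (SE 0.38).

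Against LFD mice, the icosapent ethyl mice had no call among the 10 genes either (0% of 15935 genes), with 2.69% called by DESeq2, again none of the 10. No gene of the 10 separated these groups, whereas 7.73% of all genes did. *Rspo3* had a log2 fold change of -0.83 (SE 0.30, edgeR adjusted p = 0.286), and -0.43 without LFD replicate 2. *Shh*, with a log2 fold change of -0.90 (SE 0.40), and *Gli1*, with -0.72 (SE 0.32), had adjusted p-values of 0.362 and 0.353 by the same test. Both *Rspo3* and *Gli1* had an unadjusted p below 0.05, 2 of 10 genes against 14% of all genes. This comparison shares its LFD mice with HFD versus LFD, and icosapent ethyl versus HFD shares its HFD mice, so the 3 comparisons are not independent of each other.

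**Figure D2:**
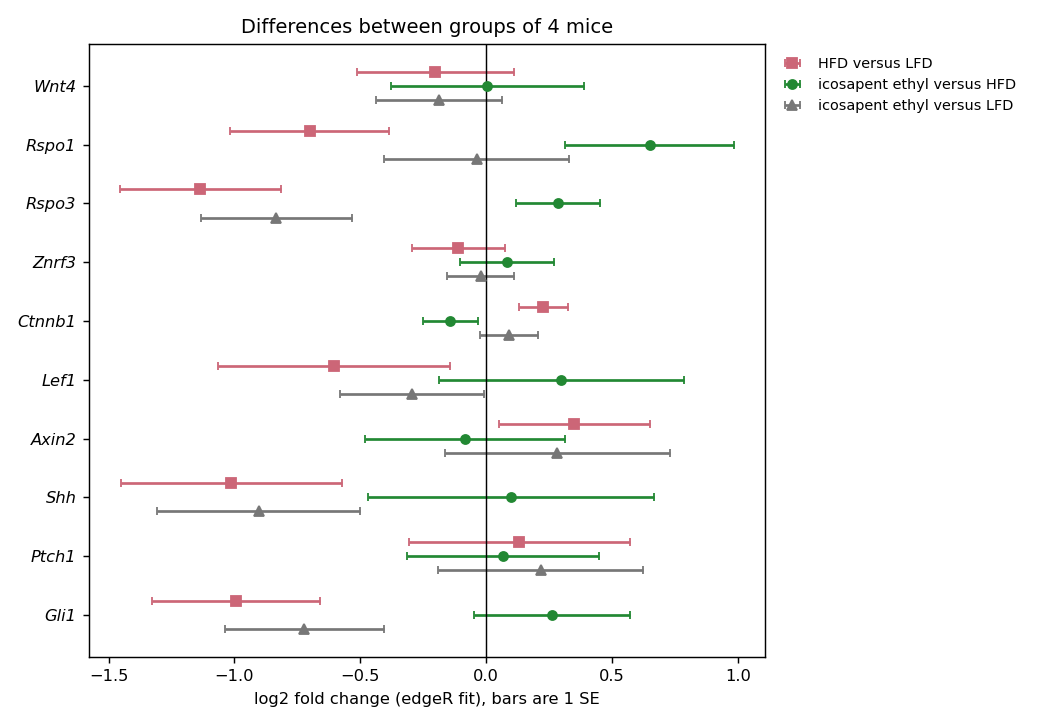
Log2 fold change of each gene in the 3 comparisons by the edgeR fit, with bars of 1 SE and 4 mice in each group. *Rspo3*, *Shh*, and *Gli1* lie between -1.13 and -0.72 against LFD mice in both HFD and icosapent ethyl mice, and no value passed an adjusted p of 0.05.

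Several of the genes varied together over the mice. Pairwise correlations of log2 CPM over the 12 mice were computed for all 45 pairs, with 100000 permutations of the mice, and 19 pairs had a Benjamini-Hochberg adjusted p below 0.05. Only 2 pairs did so when the 2 mice farthest from the median of 1 gene of the pair were left out. How often pairs of other genes pass was not tested, so the 19 pairs cannot be called particular to these genes. The closest pair was *Rspo3* with *Gli1*, with Pearson's r = 0.918 (permutation p = 1e-05, the smallest that the permutations can give, adjusted p = 0.00045) and Spearman's rho = 0.958 (permutation p = 1e-05). It was 0.906 without the 2 mice farthest from the median of *Rspo3*, and 0.839 for deviations from the group means. *Shh* went with *Rspo3* (r = 0.812, rho = 0.874, permutation p = 0.00026 and 0.00032, r = 0.837 without the 2 farthest mice) and with *Gli1* (r = 0.816, rho = 0.818, permutation p = 0.00134 and 0.00191, r = 0.774 without the 2 farthest mice). The adjusted p-values of r were 0.00458 and 0.0067. *Ptch1* and *Gli1*, both known hedgehog targets, had r = 0.447 and rho = 0.399 (permutation p = 0.146 and 0.201, adjusted p of r = 0.212, r = 0.242 without the 2 farthest mice). For deviations from the group means, however, their r was 0.689 (permutation, adjusted p = 0.0375). That p tends to be too small, because the permutations did not allow for the group means taken out. *Shh* with *Ptch1* had r = 0.554 over all 12 mice and 0.766 for deviations.

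HFD replicates 3 and 4 and icosapent ethyl replicate 4 were the 3 lowest mice in 5 of the 10 genes, *Wnt4*, *Rspo1*, *Rspo3*, *Lef1*, and *Shh*. The share of all genes for which this was true was not counted, so it cannot be called particular to these genes. The same 3 mice also had the lowest TMM factors, 0.8828, 0.8985, and 0.9203, against 0.9547 to 1.135 in the other mice. Mitochondrial genes took 3.226% and 2.92% of the counts in HFD replicates 3 and 4, the highest shares of all mice. Over all 12 mice, *Wnt4* with *Shh* had r = 0.906 and rho = 0.727 (permutation p = 0.00047 and 0.00913, adjusted p of r = 0.00458), and r = 0.808 without the 2 mice farthest in *Wnt4*. *Wnt4* with *Lef1* had r = 0.907 and rho = 0.734 (permutation p = 0.0006 and 0.00878, adjusted p of r = 0.00458), and r = 0.857 without the 2 farthest mice. For deviations from the group means, these values were 0.949 and 0.922. *Axin2* with *Wnt4* had r = 0.053 and rho = 0.175 (permutation p = 0.877 and 0.589, r = 0.322 without the 2 farthest mice), and 0.119 for deviations.

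The pairs were also computed without these 3 mice, which were set apart after the data were seen for their high fasciculata and cortical identity sums. Over the other 9 mice, *Wnt4* with *Shh* had r = 0.433 (exact permutation p = 0.245) and with *Lef1* r = 0.487 (exact permutation p = 0.187). The 3 mice lay between 81.0 and 92.9 CPM in *Wnt4* and the other 9 between 145.1 and 231.2 CPM, so that leaving them out narrowed the range of *Wnt4* and a lower r does not show that the relation was absent. *Axin2* with *Wnt4* had r = 0.868 and rho = 0.583 over the 9 mice (exact permutation p = 0.00419 and 0.108), which did not pass after adjustment (adjusted p of r = 0.0943). *Rspo3* with *Gli1* (r = 0.872, exact permutation p = 0.000576, adjusted p = 0.0259) was the single pair of 45 past the threshold.

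**Figure D3:**
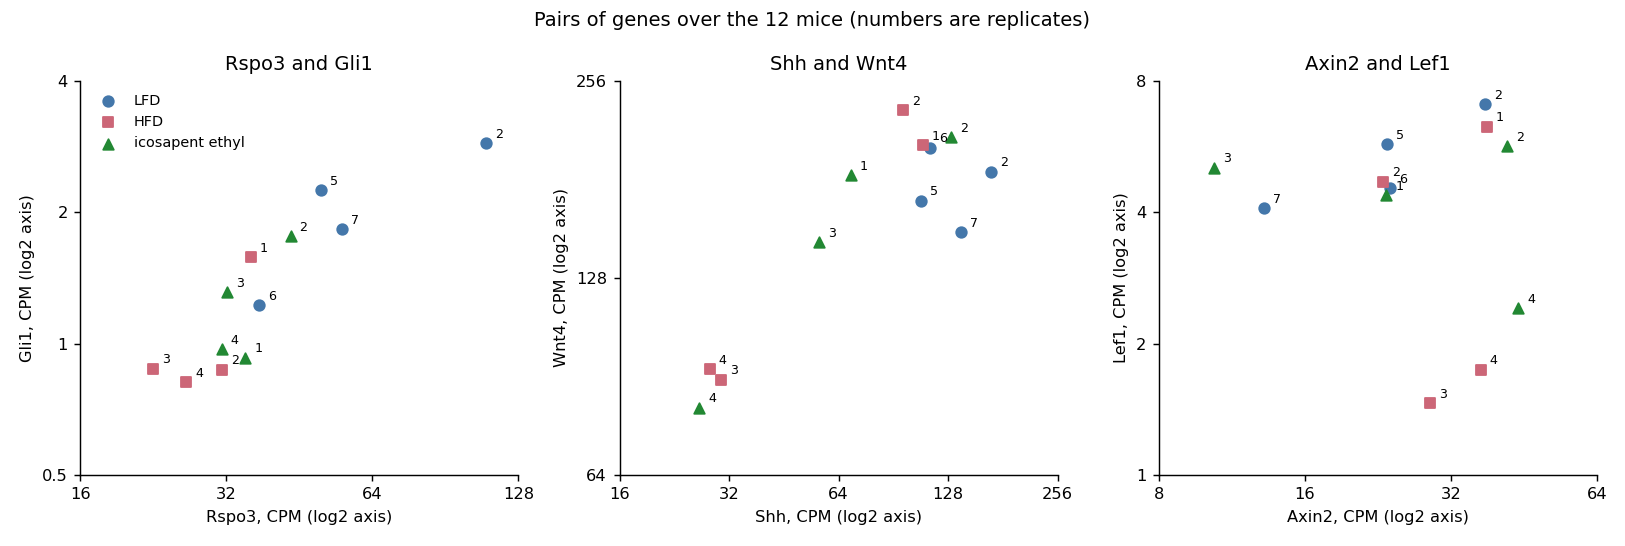
Levels of 3 pairs of genes in each of the 12 mice, in CPM on log2 axes, with the replicate number beside each point. *Rspo3* and *Gli1* rise together over the mice (r = 0.918), whereas HFD replicates 3 and 4 and icosapent ethyl replicate 4 stand apart at low *Shh* and *Wnt4* and at low *Lef1* without low *Axin2*.

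*Lef1* and *Axin2* are both textbook targets of β-catenin, yet over all 12 mice their r was 0.039 and their rho 0.322 (permutation p = 0.912 and 0.308, r = 0.209 without the 2 farthest mice). Over the 9 mice it was 0.748 (exact permutation p = 0.021, adjusted p = 0.158). The sequences upstream of *Wnt4* and *Lef1*, which were low in the same 3 mice, and of *Axin2*, which was not, are shown 5′ to 3′ as RefSeq gives them for GRCm38.p6, all on the plus strand. Capitals mark GC boxes (GGGCGG on either strand), the binding letters of SP1-type factors. The *Wnt4* stretch (chr4:137277385-137277488) ends where the annotated gene starts, and the *Axin2* (chr11:108920099-108920348) and *Lef1* (chr3:131110047-131110296) stretches end before a RefSeq start site.
Wnt4: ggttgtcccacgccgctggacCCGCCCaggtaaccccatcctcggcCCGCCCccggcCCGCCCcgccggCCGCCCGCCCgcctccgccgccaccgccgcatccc
Lef1: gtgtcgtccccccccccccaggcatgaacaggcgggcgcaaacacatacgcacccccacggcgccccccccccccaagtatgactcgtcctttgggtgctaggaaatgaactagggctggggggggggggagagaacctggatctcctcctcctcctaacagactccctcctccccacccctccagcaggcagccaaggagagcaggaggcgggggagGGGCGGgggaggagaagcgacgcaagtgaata
Axin2: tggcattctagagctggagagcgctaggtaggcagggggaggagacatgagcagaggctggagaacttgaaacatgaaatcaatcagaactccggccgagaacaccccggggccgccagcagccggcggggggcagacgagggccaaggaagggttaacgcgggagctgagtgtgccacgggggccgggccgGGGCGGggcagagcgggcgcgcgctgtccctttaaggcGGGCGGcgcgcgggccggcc
The *Wnt4* stretch of 104 bases holds 5 GC boxes, the *Axin2* stretch of 250 bases 2, and the *Lef1* stretch of 250 bases 1. These counts are thus over unlike lengths, and the full *Wnt4* window of 250 bases holds 8. *Rspo1*, also low in the same 3 mice, has a window of 250 bases with 0 GC boxes, which is not printed. RefSeq windows of 250 bases upstream were found for 6 of the 10 genes, 10 windows in all. Of these, 8 windows of 5 genes held a GC box, against 32.7% of all 32851 windows. *Lef1* had 4 of the windows and *Ctnnb1* 2, and some of them overlapped, so the windows were not independent. Their share of G and C was between 44.8% and 85.2%, against a median of 52.4% in all windows, and the difference in GC boxes was not tested. No window of the 6 genes held the TCF/LEF letters CTTTGAT or CTTTGAA on either strand, which 3.21% and 4.46% of all windows hold, nor the GLI letters GACCACCCA (0.225%), nor AAGGTCA (4.08%), the half-site of the steroidogenic factor SF-1. This says only that these letters are not in these windows. *Rspo3*, *Znrf3*, *Shh*, and *Gli1* were not among the windows used here.

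Markers of the zones and of neighboring tissues varied over the same mice, and 60 pairs of a gene with 1 of 6 marker sums were computed after the data were seen. *Shh* was lower in mice with a higher sum of the 6 zona fasciculata markers, with r = -0.922 and rho = -0.860 (permutation p = 3e-05 and 0.00061, adjusted p of r = 0.0008). The relation was -0.880 without the 2 mice farthest in the marker sum and -0.817 without the 3 mice named above, where it did not pass after adjustment (exact permutation p = 0.00653, adjusted p = 0.131). The fasciculata sum was 10400 to 14280 CPM in LFD, 13180 to 22550 CPM in HFD, and 13150 to 20140 CPM in icosapent ethyl mice. *Wnt4* (r = -0.799), *Rspo1* (-0.762), *Rspo3* (-0.840), *Znrf3* (-0.696), *Lef1* (-0.859), and *Gli1* (-0.856) also went down with this sum. Each had an adjusted p of r below 0.05 by permutation, as had these genes and *Shh* with the cortical identity sum. By rank, *Wnt4* (rho = -0.636, permutation, adjusted p = 0.0942) and *Znrf3* (rho = -0.483, adjusted p = 0.256) did not pass with the fasciculata sum. *Znrf3* did not pass by rank with cortical identity either (rho = -0.476, permutation, adjusted p = 0.259). Without the 3 mice, r with the fasciculata sum was between -0.739 (*Gli1*) and -0.333 (*Wnt4*) for these genes, but 0.121 for *Znrf3*. With the 12 zona glomerulosa markers, r lay between -0.357 (*Gli1*) and 0.329 (*Ctnnb1*), and no gene passed. That sum was 3974 to 4528 CPM, whereas *Cyp11b2* was at 514.5 CPM at most. A sum follows its most abundant markers, and the markers were not correlated one by one. *Lef1* went down with the sum of the 9 cortical identity markers (r = -0.911, rho = -0.839, permutation p = 2e-05 and 0.00119, r = -0.881 without the 2 farthest mice). *Rspo3* went up with the 12 capsule and stroma markers (r = 0.894, rho = 0.755, permutation p = 0.0001 and 0.00666, r = 0.741 without the 2 farthest mice). Their sum was 562.1 to 889.5 CPM in LFD, 455.4 to 580.9 CPM in HFD, and 443.8 to 612 CPM in icosapent ethyl mice. *Ctnnb1* went down with the 12 chromaffin markers (r = -0.802, rho = -0.797, permutation p = 0.00145 and 0.00292, r = -0.782 without the 2 farthest mice). None of the 60 pairs passed the threshold without the 3 mice (lowest adjusted exact p = 0.121). These 3 mice had the highest fasciculata and cortical identity sums, so leaving them out narrowed the range of both. A pair with either sum that did not pass over the remaining mice thus does not show that its relation was absent. The capsule and stroma sum (443.8 to 889.5 CPM) and the chromaffin sum (3272 to 23350 CPM) kept their full ranges. Fewer mice remained for these pairs too, so a pair that did not pass does not show an absent relation there either. Over all 12 mice, *Axin2* and *Ptch1* had no adjusted p of r below 0.05 with any of the 6 sums. For deviations from the group means, however, *Ptch1* had r = -0.844 with cortical identity (permutation, adjusted p = 0.00675), 0.830 with capsule and stroma (0.00995), -0.758 with fasciculata (0.0199), and 0.727 with mesothelium markers (0.0271). *Axin2* had r = 0.667 with mesothelium markers (permutation, adjusted p = 0.0440). *Rspo1* had r = 0.739 with them (permutation, adjusted p = 0.0214), but 0.343 over all 12 mice without centring. The permutations of deviations ran freely over all 12 mice and did not allow for the group means taken out. The p-values of deviations thus tend to be too small. The part of tissue composition in the differences between diets was not tested.

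**Figure D4:**
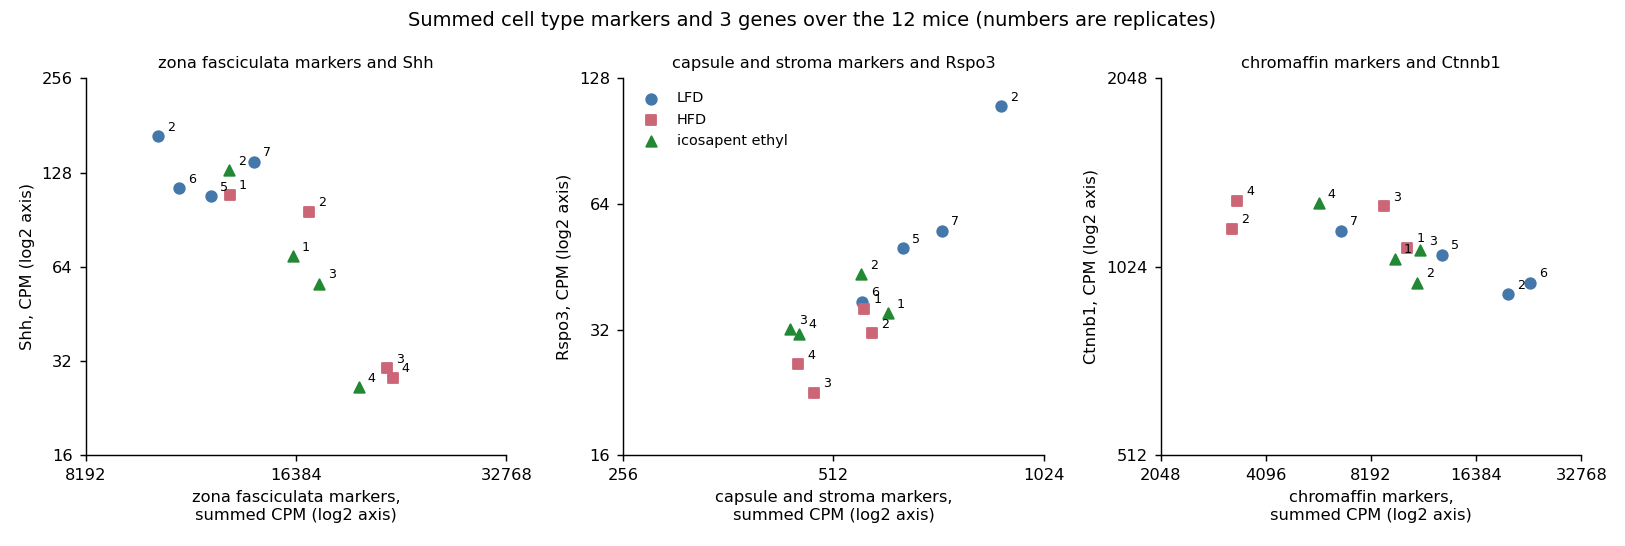
Summed CPM of a marker list (x axes) against the level of a gene in CPM (y axes), both on log2 axes, with 1 point per mouse and its replicate number. *Shh* falls with the fasciculata sum (r = -0.922), *Rspo3* rises with the capsule and stroma sum (r = 0.894), and *Ctnnb1* falls with the chromaffin sum (r = -0.802).

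The zones themselves were read from marker lists. None of the 29 zone and capsule markers tested of 32 passed the threshold in HFD versus LFD mice by edgeR, whereas 10 (34.5%) had an unadjusted p below 0.05, 5 higher and 5 lower, against 24.8% of all genes. DESeq2 called 7 of the list and 12.3% of all genes. It called *Abcb1b*, *Cyp11b1*, and *Mc2r* of the fasciculata list higher in HFD mice. Those called lower were *Dlk1* of the glomerulosa list and *Dcn*, *Fbln1*, and *Mgp* of the capsule and stroma list. Of the 12 capsule and stroma markers, 10 were lower and 2 higher in HFD mice, and 3 did not overlap between the groups, against 13.5% of all genes. *Cyp11b2*, the aldosterone synthase gene of the glomerulosa, was at 278.2 ± 37.5 CPM in LFD, 345.2 ± 115.2 CPM in HFD, and 277.5 ± 29.9 CPM in icosapent ethyl mice (SD, n = 4 each). *Dab2*, another glomerulosa gene, was at 309.7 ± 23.95, 313.8 ± 45.01, and 293.3 ± 64.2 CPM in the same groups, and the angiotensin receptor gene *Agtr1b* at 13.9 ± 4.81, 21.4 ± 2.599, and 17.7 ± 8.19 CPM. *Cyp11b1*, which encodes the last enzyme of corticosterone synthesis, averaged 5166 ± 1112 CPM in LFD mice against 8488 ± 1519 CPM with HFD (SD, n = 4 each). Every HFD mouse exceeded every LFD mouse, as in 7.71% of all genes, with a log2 fold change of 0.71 (SE 0.18, edgeR adjusted p = 0.0736). *Akr1b7*, also of the fasciculata, had a log2 fold change of 0.11 (SE 0.22), and of -0.01 with library totals. Of the capsular transcription factors, *Nr2f2* had -0.21 (SE 0.16) and *Tcf21* -0.58 (SE 0.56) or, without LFD replicate 2, 0.25, with *Tcf21* at 17.3 CPM in LFD replicate 2 and between 2.58 and 11.3 CPM elsewhere. *Akr1c18*, a marker of the transient X-zone, was at 0.0852 CPM or less in every mouse and was not tested.

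Beyond the 10 genes, 81 of 91 further WNT pathway genes passed the filter in HFD versus LFD mice, with 39 higher and 42 lower. Only 1 of the 81 passed the threshold, against 1.45% of all genes. This was *Cd44*, a cell surface glycoprotein gene known as a WNT target and expressed by many cell types. It rose from 24.7 ± 3.05 CPM to 68.0 ± 26.4 CPM (SD, n = 4 each), with 1.45 as the log2 fold change (SE 0.27, edgeR adjusted p = 0.0450), and it was highest in HFD replicates 3 and 4 at 87.2 and 91.2 CPM. Macrophages are known to express *Cd44*, and their 8 markers summed to 442 to 669.6 CPM in LFD and 329 to 389.3 CPM in HFD mice. Their part in the result was not tested. The call was lost with library totals (edgeR adjusted p = 0.0545), with no filter (0.0518), without HFD replicates 3 and 4 (0.173), and in 7 of the 8 fits that left out a mouse, the exception being the fit without HFD replicate 1. At an unadjusted p below 0.05 there were 22 genes (27.2%), 12 higher and 10 lower, near the 24.8% of all genes. DESeq2 called 11 of the list, 8 higher and 3 lower, against 12.3% of all genes. The median log2 fold change of the list was -0.02.

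Among ligands, *Wnt5a*, a ligand known mainly for noncanonical signaling, was at 44.5, 35.3, 25.0, and 20.4 CPM in LFD mice and at 81.5, 94.2, 45.4, and 83.5 CPM in HFD mice. The groups did not overlap, as for 7.71% of all genes, higher in HFD mice, and the log2 fold change was 1.27 (SE 0.29, adjusted p = 0.0612 in edgeR and 0.000874 in DESeq2). *Wnt2b*, a capsular ligand, had a log2 fold change of -0.72 (SE 0.29, edgeR adjusted p = 0.177), and of -0.43 without LFD replicate 2. *Wnt11*, at under 1 CPM, had -0.73 (SE 0.61), but -0.17 without LFD replicate 7 and -1.24 without HFD replicate 3. *Wnt6*, named after its values were seen, averaged 10.9 ± 3.07 CPM in LFD mice against 5.01 ± 1.03 CPM with HFD (SD, n = 4 each), again without overlap, as for 5.82% of all genes, lower in HFD mice. *Wnt6* had a log2 fold change of -1.13 (SE 0.25, edgeR adjusted p = 0.0578).

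Of the R-spondin receptor genes, *Lgr4* averaged 202.7 ± 84.9 CPM in LFD mice against 276 ± 145.7 CPM with HFD (SD, n = 4 each), with HFD replicates 3 and 4 the highest of all mice at 399.5 and 404.4 CPM. The log2 fold change of *Lgr4* was 0.44 (SE 0.43, edgeR adjusted p = 0.558), with a range from 0.20 to 0.67 when single mice were left out, and -0.42 without both of these mice. *Lgr5* was at 53.5, 38.6, 57.1, and 18.8 CPM in LFD mice and 38.5, 10.9, 18.2, and 5.29 CPM in HFD mice (log2 fold change -1.22, SE 0.57, edgeR adjusted p = 0.223). *Rnf43*, the paralog of *Znrf3*, averaged 2.56 ± 1.25 CPM in LFD mice against 5.28 ± 2.05 CPM with HFD (SD, n = 4 each), with 1.03 as the log2 fold change (SE 0.39, adjusted p = 0.158 in edgeR and 0.0491 in DESeq2). *Lrp6*, a WNT coreceptor gene, had a log2 fold change of 0.46 (SE 0.20), and the receptor gene *Fzd6* of -0.21 (SE 0.16). In the destruction complex, *Apc* had 0.28 (SE 0.16) and *Gsk3b* 0.24 (SE 0.15), and *Tcf7l2*, the gene of a DNA-binding partner of β-catenin, had -0.20 (SE 0.19).

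Of the secreted inhibitors, *Sfrp1* had a log2 fold change of -0.65 (SE 0.23, edgeR adjusted p = 0.138), *Notum* of -0.61 (SE 0.26), and *Dkk3* of -0.15 (SE 0.14). The intracellular feedback inhibitor *Nkd1* was at 36.0 to 39.7 CPM in LFD mice. In HFD mice it was at 40.5, 41.3, 18.1, and 19.7 CPM, so that it was low in the mice in which *Wnt4* and *Lef1* were low. The membrane inhibitor *Apcdd1*, at 15.8 to 26.6 CPM in LFD mice, was at 23.7, 25.9, 11.9, and 12.48 CPM in HFD mice in the same order. Their log2 fold changes were -0.35 (SE 0.27) and -0.13 (SE 0.28).

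Of the hedgehog list, 36 of 38 further genes were tested in HFD versus LFD mice, with 18 higher and 18 lower. None passed the threshold by edgeR, 3 (8.33%) had an unadjusted p below 0.05, against 24.8% of all genes, and DESeq2, which called 12.3% of all genes, called *Boc*, a hedgehog coreceptor gene named after its values were seen. *Smo*, the transducer that Patched restrains, was at 111.3 ± 9.65, 116.2 ± 13.4, and 115 ± 11.6 CPM in LFD, HFD, and icosapent ethyl mice (SD, n = 4 each). *Dhh*, a second hedgehog ligand gene, had a log2 fold change of -0.59 (SE 0.27, edgeR adjusted p = 0.213), and all 4 HFD mice were below all LFD mice, as for 5.82% of all genes. The decoy receptor gene *Hhip* had a log2 fold change of -0.12 (SE 0.37). *Sufu*, a restraint on GLI proteins, had -0.03 (SE 0.16), and the transcription factor genes *Gli2* and *Gli3* had -0.48 (SE 0.39) and 0.30 (SE 0.22).

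No gene of either list had an unadjusted p below 0.05 in icosapent ethyl versus HFD mice. The 80 WNT genes tested there had a median log2 fold change of -0.03 and the 35 hedgehog genes of 0.05. Of named genes, *Lgr5* had the largest value, 0.71 (SE 0.51), followed by *Cd44* with -0.51 (SE 0.38). Against LFD mice, 15 WNT genes (18.5%) and 4 hedgehog genes (11.1%) had an unadjusted p below 0.05, against 14% of all genes, and none passed the threshold by edgeR. *Boc* averaged 37.95 ± 10.8 CPM in LFD mice against 77.1 ± 19.2 CPM in icosapent ethyl mice (SD, n = 4 each) without overlap, as for 4.04% of all genes, higher in icosapent ethyl mice (log2 fold change 1.02, SE 0.23, adjusted p = 0.184 in edgeR and 0.0040 in DESeq2).

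**Figure D5:**
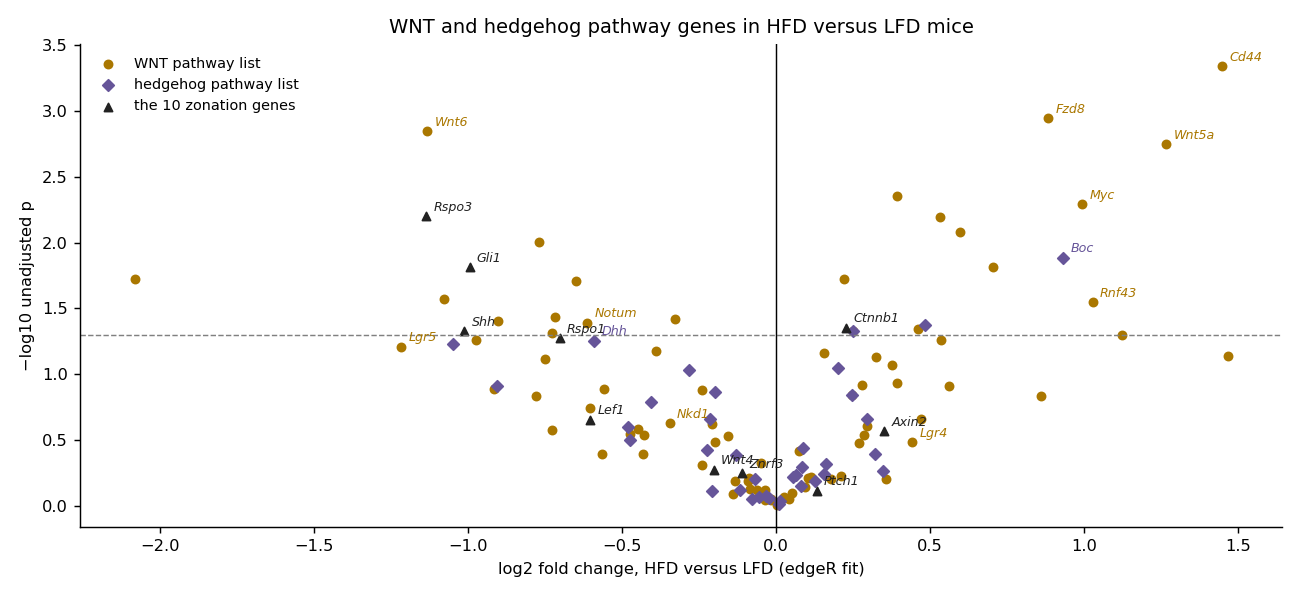
Log2 fold change in HFD versus LFD mice (x axis) and −log10 of the unadjusted p (y axis, dashed line at 0.05) for 81 WNT pathway genes, 36 hedgehog pathway genes, and the 10 zonation genes, by edgeR with 4 mice per group. *Cd44*, at 1.45, is the gene past the adjusted threshold, and *Rspo3*, at -1.13, is the zonation gene with the lowest p.

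The genes whose log2 CPM over the 12 mice was most like that of a zonation gene were searched among 13458 named genes with a mean of at least 1 CPM, as a description. *Rspo3* was closest to *Ogn* (r = 0.972), *Rnase4* (r = 0.963), and *Fibin* (r = 0.960). *Gli1* was closest to *Ifngr1* (r = 0.948), *Gfra1* (r = 0.940), and *Il16* (r = 0.937). For *Shh* they were *Arsk* (r = 0.978), *Ntn4* (r = 0.975), and *Dcps* (r = 0.973), and for *Wnt4* they were *Rgs12* (r = 0.981), *Insc* (r = 0.978), and 2810006K23Rik (r = 0.977). *Axin2* had *Sf3a1* (r = 0.969), *Fdxacb1* (r = 0.958), and *Slc35c1* (r = 0.958).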

How the data were processed

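RNA of the adrenal cortex of 12 mice was sequenced as 1 library per mouse (TruSeq stranded total RNA, HiSeq3000). The authors trimmed adaptors with cutadapt, aligned reads to GRCm38 with STAR, and deposited raw counts per gene made with HTSeq 0.6.1p1 (reverse strand, union mode) on GENCODE M12. Opposite-strand neighbors, such as *Arhgap9* at *Gli1* and *Ulk4* at *Ctnnb1*, were thus counted apart. Symbols, coordinates, and exon lengths came from GENCODE M21, which matched 49326 of 49585 identifiers. No 2 libraries agreed within sampling noise (lowest chi-square per degree of freedom 26.5 over 66 pairs).

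Groups and replicate numbers were taken from the labels. Each comparison was fitted with edgeR 4.0.16 in R 4.3.3 on its 8 mice (TMM, quasi-likelihood test with robust dispersions, genes kept by filterByExpr with 10 as minimum count, Benjamini-Hochberg adjustment, threshold 0.05). CPM used TMM over all 12 mice, and correlations used log2 CPM with a prior count of 2. The alternatives were the Wald test of DESeq2 1.42.0, DESeq2's size factors, library totals, no filter, at least 10 counts in each mouse, a joint fit of 12 mice, no robust option, a threshold of 0.1, and leaving out each mouse. The fits of 9 mice were added after the data were seen. The fit was tested on simulated data.

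The 10 genes, the marker and pathway lists, and the tests were chosen with earlier results of these data known. Named further genes were the list genes past the threshold and a fixed set of receptors, inhibitors, and zone markers, besides those said to be named after their values were seen. A gene of the fixed set is not reported here. For *Wnt4*, *Shh*, *Gli1*, *Axin2*, and *Rspo3*, the 3 genes of highest r were named.

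A replicate block was added for icosapent ethyl versus HFD mice, both numbered 1 to 4. After centring on the group means, mice with equal numbers had correlations of 0.252, 0.120, 0.356, and 0.656, although HFD replicate 1 correlated at 0.619 with icosapent ethyl replicate 2. The labels do not say what the numbers denote.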

Additional observations from a re-analysis of the deposited data

Results flagged for a closer look

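In groups of 4 mice, a mouse was singled out when its gap to the nearest of the others as a share of the group's range passed Dixon's 95% critical value, which chance gives in about 1 of 20 groups. Of 30 groups checked (10 genes in 3 groups), 2 held such a mouse. *Rspo1* was at 8.31 CPM in LFD replicate 2, whereas the other 3 LFD mice were between 3.87 and 4.18 CPM, and this gap took 0.931 of the range. The same mouse was the highest of all 12 in *Rspo3*, *Lef1*, *Shh*, *Gli1*, and *Ptch1* and had the highest sum of capsule and stroma markers. *Gli1* was at 1.58 CPM in HFD replicate 1, whereas the other 3 HFD mice were between 0.814 and 0.876 CPM, and this gap took 0.919 of the range.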

How the results depend on the processing

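With 4 mice per group, no gene of the 10 passed an adjusted p of 0.05 by edgeR in any comparison, with all mice or with a mouse left out. In HFD versus LFD mice, 2 of the 10 genes passed by DESeq2 and 1 at a threshold of 0.1. All genes numbered 84 with library totals, 1965 by DESeq2, 556 with 12 mice in 1 fit, 1396 at 0.1, 9 in the 9 mice, and 0 to 918 with a mouse left out (78 without LFD replicate 2, 918 without HFD replicate 1, and 0 without any other). The WNT list gave 0 with library totals or in the 9 mice, 11 by DESeq2, 2 with 12 mice in 1 fit, 8 at 0.1, and 0 to 4 with a mouse left out. The hedgehog list gave 1 by DESeq2. The zone lists gave 7 by DESeq2, 1 without a filter, 2 with 12 mice in 1 fit, 6 at 0.1, and 0 to 4 with a mouse left out.

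In icosapent ethyl versus HFD mice, DESeq2 called 7 genes in all. Against LFD mice, it called 5 WNT, 1 hedgehog, 3 zone, and 417 genes in all, and the fit of 12 mice 2 in all, with 0 to 1 when a mouse was left out. Of the correlations, 2 pairs passed without the 2 farthest mice and 1 in the 9 mice.

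Without HFD replicates 3 and 4 and icosapent ethyl replicate 4, log2 fold changes turned their sign in HFD versus LFD for *Wnt4* (0.306), *Znrf3* (0.182), and *Lef1* (0.0367). In icosapent ethyl versus HFD they did so for *Wnt4* (-0.267), *Znrf3* (-0.12), *Lef1* (-0.115), *Shh* (-0.254), and *Ptch1* (-0.242), and against LFD for *Wnt4* (0.0259), *Rspo1* (0.149), and *Znrf3* (0.045). *Wnt4* in icosapent ethyl versus HFD was also -0.000581 by DESeq2 and -0.00406 without a filter.
With a mouse left out, the values that turned their sign ranged in HFD versus LFD for *Znrf3* from -0.247 to 0.0232 and *Ptch1* from -0.0783 to 0.602, in icosapent ethyl versus HFD for *Wnt4* from -0.184 to 0.266, *Znrf3* from -0.0375 to 0.218, *Axin2* from -0.333 to 0.197, *Shh* from -0.38 to 0.454, and *Ptch1* from -0.154 to 0.278, and in icosapent ethyl versus LFD for *Wnt4* from -0.369 to 0.0259, *Rspo1* from -0.272 to 0.304, and *Znrf3* from -0.0993 to 0.0638.
Among the further genes named, HFD versus LFD values turned their sign in the 9 mice for *Lgr4* (-0.423), *Tcf7l2* (0.057), *Dkk3* (0.0824), *Nkd1* (0.119), *Apcdd1* (0.302), *Sufu* (0.183), and *Akr1b7* (-0.315, and -0.0148 with library totals). With a mouse left out they ranged for *Apcdd1* from -0.34 to 0.0411, *Hhip* from -0.449 to 0.116, *Sufu* from -0.135 to 0.0989, *Akr1b7* from -0.0219 to 0.244, and *Tcf21* from -0.799 to 0.25. Leaving out a mouse moved at least 1 value by over 1.5 times for 7 of the 10 genes in HFD versus LFD, 10 in icosapent ethyl versus HFD, and 9 in icosapent ethyl versus LFD, and for 18 of 27 further genes in HFD versus LFD. The cause of these shifts was not tested. Library totals moved the median log2 fold change of all genes in HFD versus LFD from -0.0148 to -0.114. With the replicate block in icosapent ethyl versus HFD mice, 0 genes passed, as without it, and it changed no call. No paired analysis was possible for the LFD comparisons because these groups share only the number 2.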
